A study of Mus musculus with 24 samples.

Results

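The nuclear-encoded subunits of respiratory complexes III, IV and V were followed through early adipogenesis of primary (1°) brown and visceral white precursor cells. Members were the rows of the deposited expression table whose symbol begins with Uqcr, Atp5, Cox4i, Cox5, Cox6, Cox7 or Cox8, together with *Cyc1* and *Cycs*. *Cox7a1* and *Cox8b*, isoforms enriched in brown fat and muscle, and names of pseudogenes were left out. This gave 42 genes of 49452 rows, namely 9 of complex III, the single mobile carrier *Cycs*, 15 of complex IV and 17 of complex V. *Cox4i1*, the usual isoform of subunit 4, was not analysed here. *Atp5s* and *Atp5sl* entered by name and are not structural subunits of ATP synthase.

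The inner mitochondrial membrane passes electrons from ubiquinol to complex III, from there through soluble cytochrome c to complex IV, and finally to oxygen. The protons pumped on the way return through complex V, whose rotating stalk drives ATP synthesis. Apart from a few catalytic subunits encoded by mitochondrial DNA, all parts of these complexes are transcribed in the nucleus and imported. Brown fat is packed with mitochondria and is known for carrying much respiratory chain relative to its ATP synthase, while the uncoupling protein *Ucp1* lets protons return as heat.

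RNA was sequenced from 24 cultures of stromal-vascular precursors of C57BL/6 mice, 3 for each of 8 groups. BAT cultures came from interscapular brown fat and vWAT cultures from epididymal (visceral) white fat. Each culture received by nucleofection 100 nmol/l of either a non-targeting siRNA (siCtrl, siKO in the labels) or an siRNA against the long noncoding RNA *H19* (siH19), and was collected at d0 or after 3 days of differentiation (d3). Insulin, dexamethasone, rosiglitazone and IBMX are named for the induction of adipogenesis, and BAT medium also held indomethacin and triiodothyronine. For the differentiation medium that followed, the study's methods name rosiglitazone for white cultures and triiodothyronine for brown ones. The depots therefore differed in medium as well as in origin. All BAT libraries also carry a different name prefix from all vWAT libraries, so depot, medium and library series cannot be told apart. The labels do not say whether the 3 cultures of a group came from separate animals, and the study's methods allow pooled brown fat. All p-values thus measure the spread between these cultures only.

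Values are FPKM, that is fragments scaled to transcript length and to the mapped fragments of a library, which allow genes to be compared per length. The sum over all genes was 710794 to 841456 per library, 12311 to 13125 genes reached 1 FPKM, and replicates correlated across genes with r of 0.988 to 0.991 on the log2 scale. Read counts were not used here, and depth is known only relative to the median library, at 0.826 to 0.983 in BAT and 1.02 to 1.17 in vWAT. *H19*, the targeted gene, was listed at 99.7, 86.4 and 83.2 FPKM in siCtrl BAT cultures at d3 and at 12.04, 12.1 and 16.9 FPKM in siH19. In vWAT at d3 the levels were 8.67, 8.19 and 8.90 FPKM against 0.327, 0.291 and 0.966 FPKM, and the groups did not overlap in either depot or day. All 6 adipocyte markers examined (*Adipoq*, *Fabp4*, *Plin1*, *Lpl*, *Cidec* and *Pparg*) were at or above 1 FPKM in every library. *Ucp1* was listed at 8.84, 11.2 and 16.3 FPKM in siCtrl BAT at d3, and at 0 in all 12 vWAT libraries. In bulk RNA of this kind, fewer cells of a type and less RNA per cell cannot be told apart. Groups were compared with limma on log2(FPKM + 1), and a called gene had both a change of 1.3-fold or more and a p under 0.05 after Benjamini-Hochberg adjustment over all genes tested.

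Together the 42 genes accounted for 1.24% to 1.301% of all FPKM in siCtrl BAT precursors at d0 and for 4.08% to 4.27% at d3. In vWAT they went from 1.31% to 1.34% at d0 to 2.34% to 2.47% at d3. The summed level of the complex III genes in siCtrl BAT was 1764, 1680 and 1684 FPKM at d0 and 7789, 8296 and 8355 FPKM at d3, which is a 4.77-fold ratio of the means. Complex IV genes summed to 3345, 3166 and 3169 FPKM at d0 and to 10914, 11748 and 11710 FPKM at d3, a 3.55-fold ratio. Complex V genes summed to 4251, 4055 and 3918 FPKM at d0 and to 13393, 14451 and 14328 FPKM at d3, a 3.45-fold ratio. No d0 library reached any d3 library in these sums. The corresponding ratios in siCtrl vWAT were 2.27 for complex III, 1.95 for complex IV and 1.90 for complex V, and 3.53 for *Cycs* against 12.4 in BAT.

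**Figure D1:**
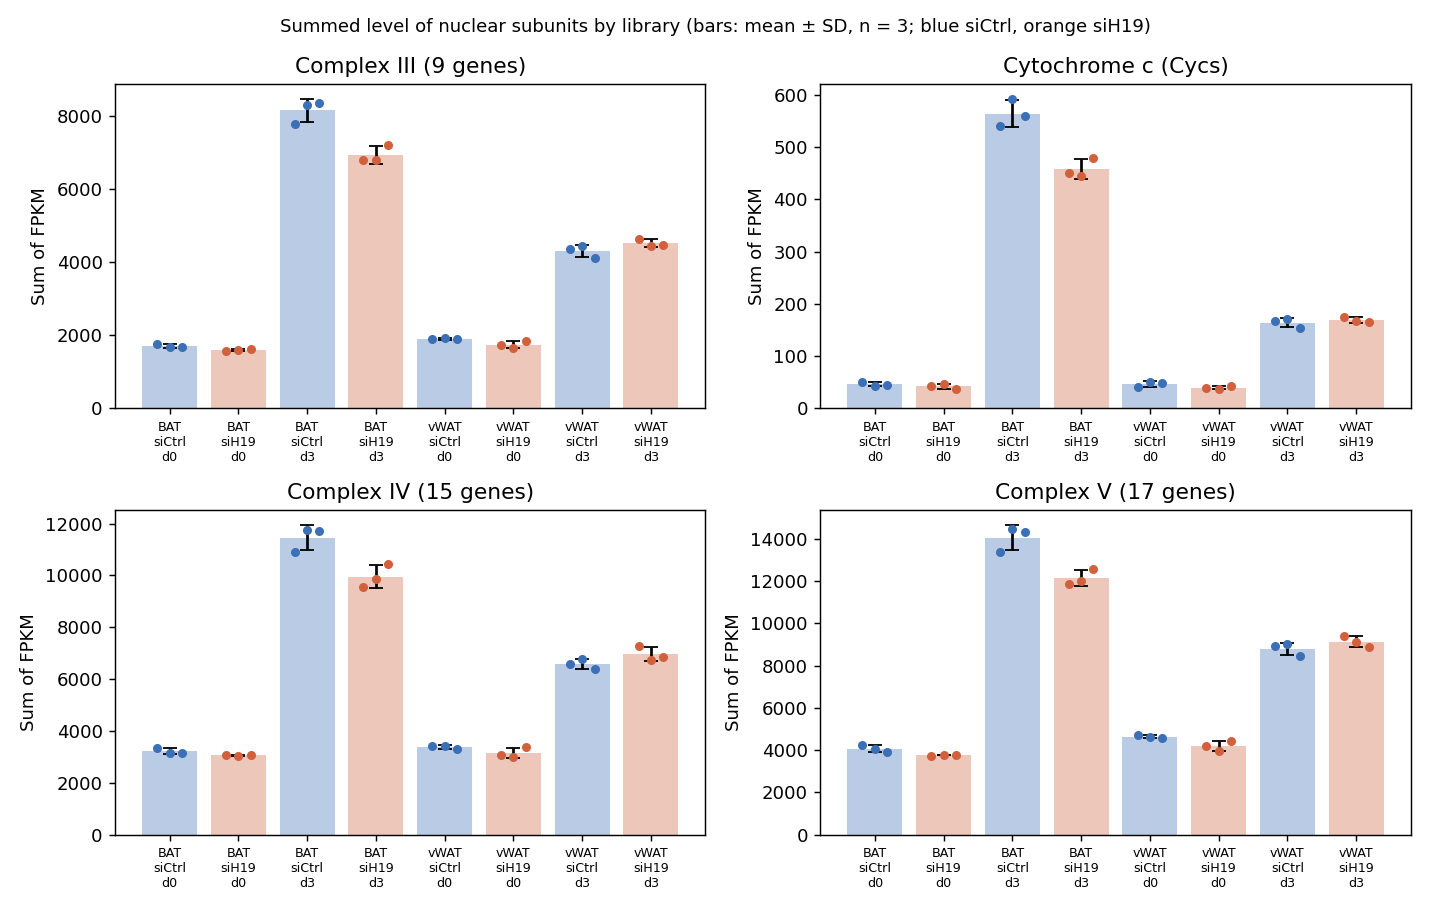
Summed FPKM of the member genes of complex III, cytochrome c, complex IV and complex V in the 8 groups. Bars are means, error bars SD (n = 3) and points single libraries. All d3 libraries lie above all d0 libraries, BAT exceeds vWAT at d3, and within BAT at d3 each siH19 library lies below each siCtrl library.

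*Cox7b2* and *Cox8c*, isoforms best known from testis, were listed at 0 in all 24 libraries and were left out of the tests, so that 40 members passed the filter of at least 1 FPKM in 3 libraries in most comparisons. In siCtrl BAT, 38 of these 40 rose from d0 to d3 and 0 fell, where 29.9% of all 13001 genes tested were called higher and 35.3% lower. The median log2 change of the members was 1.89, beside -0.10 for all genes tested. In siCtrl vWAT, 39 of 40 rose and 0 fell (26.3% of all genes were called higher and 23.9% lower) with a median of 0.99 beside 0.01. In siH19 cultures 38 of 40 rose in BAT (30.8% of all genes, member median 1.80) and 38 of 40 in vWAT (28.2% of all genes, member median 1.18). The exceptions in these comparisons were *Cox4i2*, the isoform of subunit 4 known from lung, and *Cox6a2*, the muscle isoform of subunit 6a, both at a few FPKM or less.

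The nuclear-encoded part of complex III holds a catalytic cytochrome c1 (*Cyc1*) and Rieske iron-sulfur protein (*Uqcrfs1*), a pair of large core proteins (*Uqcrc1*, *Uqcrc2*) and small supernumerary proteins. *Uqcrfs1* lies at chr13:30540308-30545362 on the minus strand and *Cyc1* at chr15:76343523-76345934 on the plus strand (GRCm38). *Uqcrfs1* was listed at 64.8, 65.3 and 69.6 FPKM in siCtrl BAT at d0 and at 553, 602 and 585 FPKM at d3. *Cyc1* was listed at 93.0, 91.9 and 93.0 FPKM at d0 and at 623, 671 and 670 FPKM at d3. Both genes were low at d0 and similar between replicates, and neither had overlapping groups. On the log2 scale *Uqcrfs1* rose by 3.10 (SE 0.05, limma adjusted p = 2.9e-08) and *Cyc1* by 2.81 (SE 0.04), *Uqcrc2* by 2.80 and *Uqcrc1* by 2.43. The small subunits *Uqcr10*, *Uqcr11*, *Uqcrh*, *Uqcrb* and *Uqcrq* rose by 2.42, 2.23, 2.09, 1.97 and 1.67, so each of the 4 large subunits rose more than each of the 5 small ones, although *Uqcr10* and *Uqcrc1* differed by less than their SE.

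The levels of the complex III subunits drew nearer to each other. At d0 in siCtrl BAT the highest, *Uqcrq* at a mean of 379 FPKM, exceeded the lowest, *Uqcrfs1* at 66.6 FPKM, by 5.71-fold (SD 0.41, n = 3 libraries). At d3 the highest was *Uqcrh* at 1343 FPKM, and the ratio over *Uqcrfs1* was 2.32 (SD 0.06). The ratio went from 6.68 (SD 0.38) to 3.96 (SD 0.07) in siCtrl vWAT. In siCtrl BAT the ratio widened in complex V, and in complex IV only through *Cox7a2l*, a factor of supercomplex assembly. Among the 10 abundant complex IV genes *Cox6b1* exceeded *Cox7a2l* by 7.56-fold (SD 0.25) at d0 and by 11.96-fold (SD 0.07) at d3. Without *Cox7a2l* the lowest was *Cox5a* at d0 (155, 145 and 145 FPKM) and *Cox7c* at d3 (746, 741 and 791 FPKM). *Cox6b1* stood at 803, 754 and 756 FPKM and at 2908, 3134 and 3119 FPKM, so its ratio over the lowest became smaller. Among the 15 structural complex V genes *Atp5b* exceeded *Atp5g2* by 10.5-fold (SD 0.76) at d0 and 21.1-fold (SD 0.51) at d3. Of the 75-base stretches in transcripts of *Atp5g2*, 35.8% also occur in other annotated genes, and of those of *Cox7c* 19.6%. The part of this shared sequence in the ratios was not tested. The abundant genes of complexes IV and V were chosen with their levels known, and these ratios are a description.

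*Cycs*, which encodes somatic cytochrome c and lies at chr6:50562563-50566538 on the minus strand (GRCm38), had the largest rise of all members in BAT. It was listed at 49.6, 41.9 and 45.5 FPKM at d0 and at 541, 592 and 560 FPKM at d3 in siCtrl BAT. In siCtrl vWAT it was listed at 41.2, 50.8 and 47.5 FPKM at d0 and at 168, 171 and 154 FPKM at d3. The depots overlapped at d0, and at d3 every BAT library lay above every vWAT library. The rise was 3.60 (SE 0.07, limma adjusted p = 5.7e-08) on the log2 scale in BAT and 1.80 in vWAT. About 23.9% of the 75-base stretches of its transcripts also occur in other annotated genes, mostly processed copies, which were themselves listed at no more than 0.795 FPKM.

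In complex IV, *Cox5a* and *Cox5b* bind close to the catalytic core that mitochondrial DNA encodes. *Cox5a* was listed at 155, 145 and 145 FPKM at d0 and at 793, 854 and 845 FPKM at d3 in siCtrl BAT, a rise of 2.48 (SE 0.05, limma adjusted p = 5.1e-08). *Cox5b* rose by 2.1 (SE 0.05). The other abundant subunits, *Cox6a1*, *Cox6b1*, *Cox6c*, *Cox7a2*, *Cox7b*, *Cox7c* and *Cox8a*, rose by 1.27 to 2.01, and *Cox7a2l*, a factor of supercomplex assembly, by 1.31. In complex V the catalytic head subunits alpha and beta, *Atp5a1* and *Atp5b*, rose by 2.34 and 2.06. Of the ring-forming c subunit genes, which encode the same mature protein, *Atp5g3* rose by 1.58, *Atp5g1* by 1.49 and *Atp5g2* by 1.05. *Atp5g3* gave 63.2% ± 1.00 (SD, n = 3) of their summed FPKM in siCtrl BAT at d0 and 67.1% ± 0.88 at d3, and 73.7% ± 0.39 in siCtrl vWAT at d3, where *Atp5g1* gave 15.7% ± 0.32. The smallest called rises in BAT were those of *Atp5j* (0.71), coupling factor 6 of the peripheral stalk, and *Atp5e* (0.84), the epsilon subunit.

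**Figure D2:**
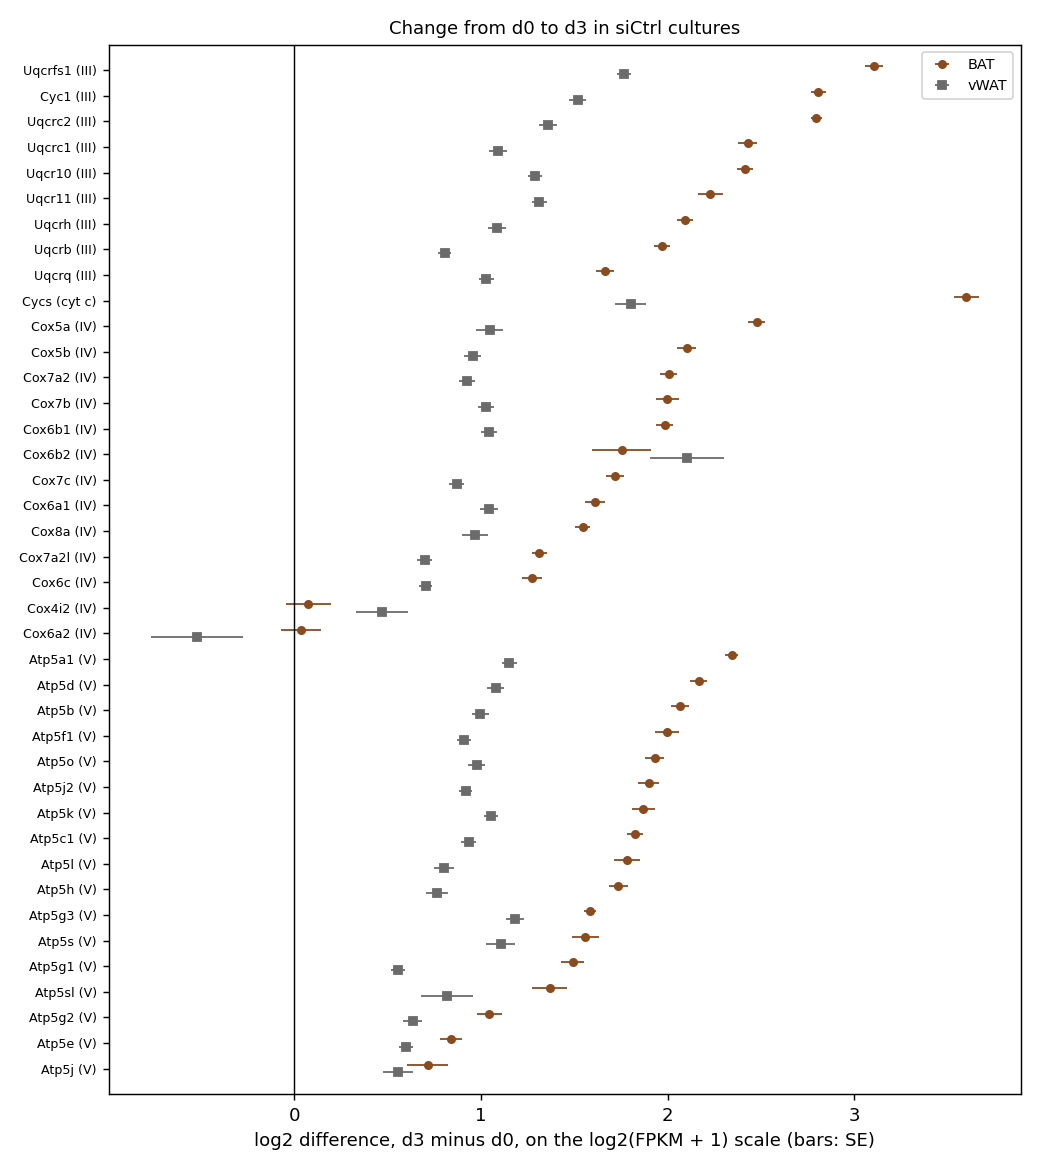
Log2 difference between d3 and d0 for the 40 tested members in siCtrl BAT (circles) and siCtrl vWAT (squares), with standard errors, ordered within each complex by the BAT value. Points right of 0 are higher at d3. *Cycs*, *Uqcrfs1*, *Cyc1* and *Uqcrc2* lie farthest right in BAT, at 2.80 to 3.60, and *Cox6b2* and *Cox4i2* lie farther right in vWAT than in BAT.

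Upstream sequence is shown for the members with the largest rise in *Cycs*, *Uqcrfs1* and *Cox5a* and for the small rise of *Atp5e*, since they mark the ends of the range among members with a usable window. Sequences are from RefSeq on GRCm38.p6, run 5′ to 3′ in the direction of transcription and hold no annotated exon. *Cycs* is shown at chr6:50566570-50566642 (minus strand), *Uqcrfs1* at chr13:30545363-30545566 (minus strand), *Cox5a* at chr9:57520982-57521231 (plus strand) and *Atp5e* at chr2:174464106-174464351 (minus strand). Capitals mark a core site of nuclear respiratory factor 1 (GCGCATGC, here as its reverse complement) in *Cycs*, starting 60 bases before the start, and an ETS motif (CCGGAAG, as its reverse complement) in *Atp5e*, 102 bases before the start. No capitals in *Uqcrfs1* and *Cox5a* mean that none of the 4 motifs searched is in the window shown.
Cycs: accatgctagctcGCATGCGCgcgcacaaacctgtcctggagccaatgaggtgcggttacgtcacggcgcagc
Uqcrfs1: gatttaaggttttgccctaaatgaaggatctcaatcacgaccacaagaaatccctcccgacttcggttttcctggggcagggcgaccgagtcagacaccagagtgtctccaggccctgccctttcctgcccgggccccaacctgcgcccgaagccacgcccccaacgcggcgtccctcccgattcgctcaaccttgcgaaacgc
Cox5a: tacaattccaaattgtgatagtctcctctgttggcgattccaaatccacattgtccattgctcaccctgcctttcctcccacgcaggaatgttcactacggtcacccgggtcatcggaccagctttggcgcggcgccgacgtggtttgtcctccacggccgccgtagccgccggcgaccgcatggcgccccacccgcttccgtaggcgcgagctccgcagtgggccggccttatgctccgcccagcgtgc
Atp5e: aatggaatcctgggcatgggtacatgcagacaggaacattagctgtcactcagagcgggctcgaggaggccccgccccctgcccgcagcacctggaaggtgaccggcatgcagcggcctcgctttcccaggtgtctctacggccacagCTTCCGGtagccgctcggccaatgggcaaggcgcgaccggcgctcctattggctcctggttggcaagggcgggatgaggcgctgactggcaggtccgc
RefSeq windows of 300 bases around the start were matched for 30 of the 42 members and searched on both strands. GCGCATGC was found in 7 of the 30 (23.3%), beside 3.05% of 27025 genes. The 7 genes were *Atp5g2*, *Atp5k*, *Atp5l*, *Cox6a1*, *Cycs*, *Uqcr11* and *Uqcrc1*. CCGGAAG, a motif of ETS factors such as GABPA, was found in 10 of 30 (33.3%) beside 9.93% of all genes. AAGGTCA, a site of estrogen-related receptors, was found in 4 of 30 (13.3%, against 5.38%), and AAGATGGC, a YY1 motif, in 2 of 30 (6.67%, against 3.19%). The ETS motif ends in the letters AAG with which the last 2 motifs begin, so these can share bases, and a match is a description of the sequence and not of binding.

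Before induction the fitted difference between depots was under 1.3-fold for 39 of the 40 members. At d0 in siCtrl cultures 1 of 40 members was called higher in BAT than in vWAT (10.2% of all genes tested were called higher) and 0 were called lower (21% of all genes), with a member median of -0.14 beside -0.13 for all genes. The 23 members with an unadjusted limma p under 0.05 included 18 that were lower in BAT at an adjusted p under 0.05 by less than 1.3-fold. Whatever the size of the change, 33.2% of all genes tested were lower in BAT at an adjusted p under 0.05. With trimmed-mean scaling the median of all genes moved to -0.02 and that of the members to -0.01. The called gene was *Cox6a2*, listed at 4.74, 3.60 and 3.89 FPKM in BAT and at 2.28, 1.10 and 1.48 FPKM in vWAT. At d3, 33 of 40 members were called higher in BAT (16.5% of all genes) and 1 lower (32.1% of all genes), with a median of 0.80 beside -0.16. Calls of higher level covered 9 of 9 genes of complex III, *Cycs*, 10 of 13 of complex IV and 13 of 17 of complex V.

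*Cycs* differed most between the depots at d3, by 1.78 on the log2 scale (SE 0.05), followed by *Cox6a2* (1.53), *Uqcrfs1* (1.39), *Uqcrc1* (1.36) and *Cox5a* (1.33). *Atp5g3* (0.10), *Atp5g2* (0.21) and *Atp5e* (0.23) differed by less than 1.3-fold and were not called. *Atp5j* was at 575, 642 and 675 FPKM in siCtrl BAT and at 679, 784 and 685 FPKM in siCtrl vWAT, a difference of -0.18 (SE 0.08, limma adjusted p = 0.080). Its exons overlap those of *Gabpa* on the opposite strand over 12.7% of their length. The gene called lower was *Cox4i2*, listed at 1.03, 0.948 and 1.41 FPKM in BAT and at 2.49, 2.16 and 2.04 FPKM in vWAT.

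The test of the difference itself, the interaction of depot and day in siCtrl cultures, was passed by 36 of 40 members with a larger rise in BAT (24.9% of 14111 genes tested had a positive interaction at an adjusted p under 0.05). *Cycs* had an interaction of 1.80 (SE 0.12), *Uqcrc2* of 1.44 and *Cox5a* of 1.43. *Cox4i2*, *Cox6a2*, *Cox6b2* and *Atp5j* did not pass. Adipocyte markers moved along, since their 6 genes summed to 36917 to 38605 FPKM in siCtrl BAT at d3 and to 18842 to 19823 FPKM in siCtrl vWAT. The brown adipocyte markers had a BAT over vWAT ratio of summed means of 5.36 and the skeletal muscle markers of 3.79. For macrophage, stromal, smooth muscle, endothelial and mesothelial markers the ratio was 0.285, 0.543, 0.486, 0.486 and 0.151. Their part in the depot difference of the subunits was not tested.

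Knockdown of *H19* was compared with siCtrl within each depot and day, to ask whether the subunit genes follow *H19* in brown cells. The siCtrl libraries at d3 are shared with the comparison of days and with that of depots. At d3 in BAT the members of complex III summed to 7789, 8296 and 8355 FPKM in siCtrl and to 6782, 6784 and 7215 FPKM in siH19. For complex IV the sums were 10914, 11748 and 11710 FPKM against 9565, 9846 and 10430 FPKM. For complex V they were 13393, 14451 and 14328 FPKM against 11890, 11990 and 12583 FPKM. The groups did not overlap in any of these sums, and the ratios of the means were 0.850, 0.868 and 0.865. In vWAT at d3 the same ratios were 1.05, 1.06 and 1.04. The groups overlapped there for complexes IV and V, and for complex III the lowest siH19 library (4440 FPKM) was barely above the highest siCtrl library (4439 FPKM). Relative depth at d3 was 0.826 to 0.923 in siH19 BAT and 0.917 to 0.949 in siCtrl BAT, and its part in the difference was not tested.

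The difference was small for each gene. In BAT at d3, 0 of 40 members were called lower by limma, where 2.18% of 12500 genes were called lower, and 1 was called higher, where 6.39% were. A lower level at an adjusted p under 0.05, whatever the size, was found for 21 of 40 members, beside 5.61% of all genes. All 3 siH19 libraries lay below all 3 siCtrl libraries for 25 of 40 members, beside 13.1% of all genes. The fitted difference was negative for 38 of 40, with a median of -0.18 beside 0.05 for all genes tested, and 29 members had an unadjusted p under 0.05. The 21 genes comprised 7 of 9 in complex III, *Cycs*, 7 of 13 in complex IV and 6 of 17 in complex V. The minimum of 1.3-fold decides the number of calls. With trimmed-mean scaling 6 members were called lower, namely *Cyc1*, *Uqcrfs1*, *Uqcrc1*, *Uqcrc2*, *Cox5a* and *Atp5a1*, and the calls over all genes went from 799 higher and 272 lower to 625 higher and 414 lower. Without siH19 replicate 3 there were 4 members called lower and without siCtrl replicate 1 there were 3.

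*Cyc1* was listed at 623, 671 and 670 FPKM in siCtrl BAT at d3 and at 494, 501 and 532 FPKM in siH19. The difference was -0.36 (SE 0.05, limma adjusted p = 0.0053). *Uqcrc2* was listed at 747, 747 and 767 FPKM against 601, 602 and 592 FPKM, a difference of -0.33 (SE 0.03, limma adjusted p = 0.0023). *Cyc1* and *Uqcrc2* had replicates much closer to each other than to the other group. *Uqcrc1* and *Uqcrfs1* differed by -0.35 and -0.34, *Uqcrb* by -0.31, *Uqcrq* by -0.24 and *Uqcr11* by -0.18. *Uqcr10* (-0.13) and *Uqcrh* (-0.09) had an adjusted p above 0.05. The 4 large subunits of complex III had the largest fitted differences in the complex, though the margin over *Uqcrb* was small. With single libraries left out, *Uqcrfs1* ranged from -0.37 to -0.31 and *Uqcrb* from -0.34 to -0.29, so their order is not settled. *Cycs* was listed at 541, 592 and 560 FPKM against 451, 444 and 479 FPKM, a difference of -0.30 (SE 0.05, limma adjusted p = 0.0099).

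In complex IV, *Cox5a* was listed at 793, 854 and 845 FPKM in siCtrl and at 624, 638 and 699 FPKM in siH19, a difference of -0.35 (SE 0.05, limma adjusted p = 0.0089). *Cox7c* (-0.32), *Cox6a1* (-0.26), *Cox5b* (-0.22), *Cox6b1* (-0.19), *Cox6c* (-0.19) and *Cox8a* (-0.18) had an adjusted p under 0.05, while *Cox7a2* (-0.13), *Cox7b* (-0.11) and *Cox7a2l* (-0.11) did not. In complex V, *Atp5a1* was listed at 1290, 1368 and 1328 FPKM against 1028, 1042 and 1049 FPKM, a difference of -0.35 (SE 0.03, limma adjusted p = 0.0027). *Atp5b* differed by -0.30, *Atp5d* by -0.26, *Atp5f1* by -0.25, *Atp5j2* by -0.20 and *Atp5c1* by -0.20, all at an adjusted p under 0.05. The c subunit genes *Atp5g1*, *Atp5g2* and *Atp5g3* had differences of -0.14, -0.17 and -0.06, none past the test. *Atp5sl* had the lowest fitted value, -0.42 (SE 0.13), with an adjusted p of 0.075 from limma at 13.8 ± 2.19 FPKM in siH19 against 18.7 ± 2.1 FPKM (SD, n = 3). Among these genes, opposite-strand exons cover over 10% of the exonic bases of *Cox5a* (12.8%, *Gm26631*) and *Uqcrc2* (19.7%, *Pdzd9*). The neighbours were listed at means of 34.6 and 43.2 FPKM in siCtrl BAT at d3, far below the members, and without a stated strand setting the reads of each pair cannot be told apart.

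**Figure D3:**
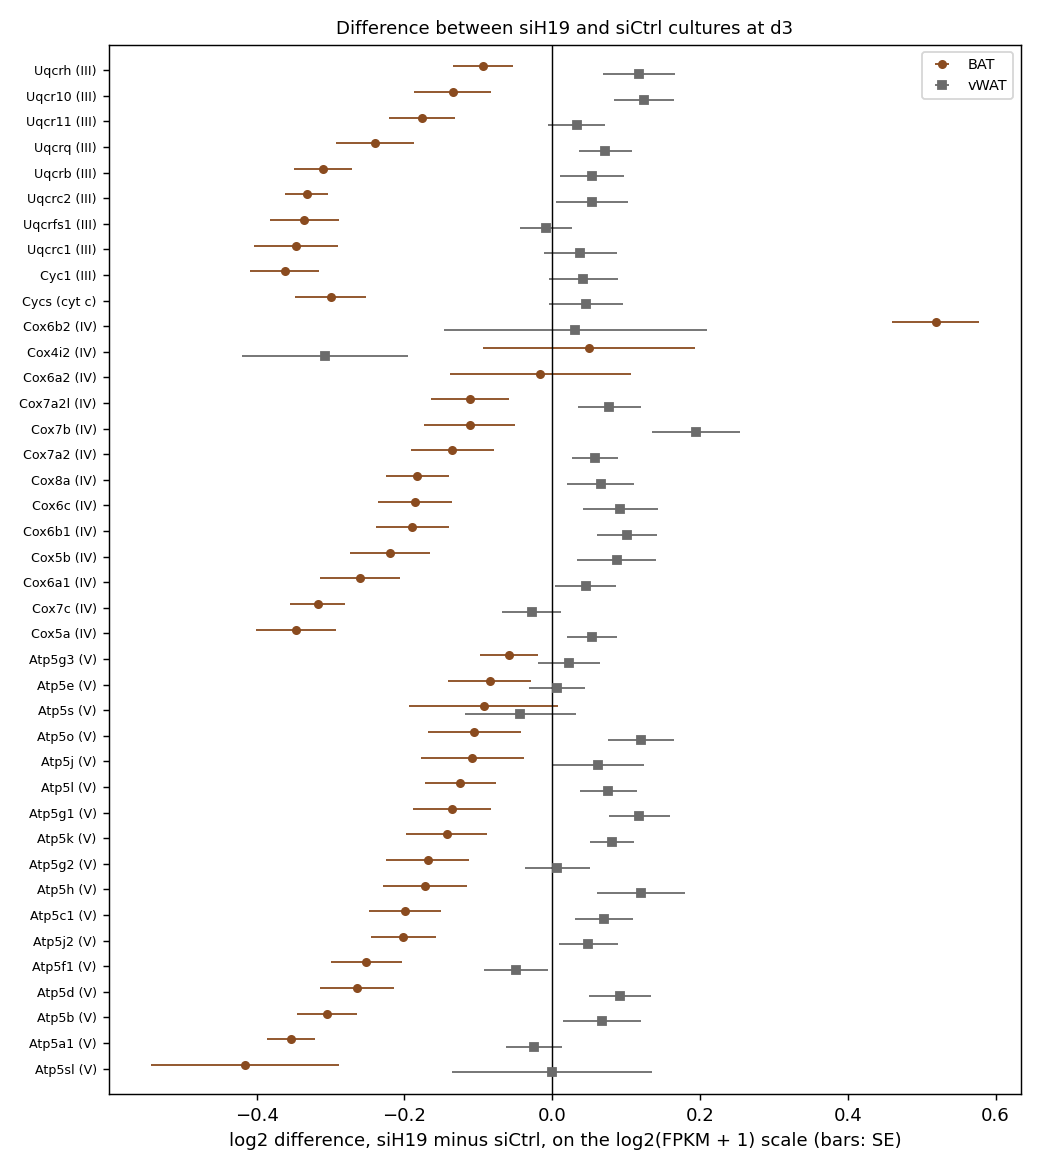
Log2 difference between siH19 and siCtrl at d3 in BAT (circles) and vWAT (squares) for the 40 tested members, with standard errors, ordered within each complex by the BAT value. In BAT 38 of 40 points lie left of 0 and *Cox6b2* lies at 0.52, and in vWAT 32 of 39 lie right of 0, *Cox6a2* having failed the filter there.

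*Cox6b2*, the testis isoform of subunit 6b at chr7:4751792-4753094 on the minus strand (GRCm38), went the opposite way. It was listed at 29.7, 27.1 and 27.8 FPKM in siCtrl BAT at d3 and at 41.2, 38.8 and 42.5 FPKM in siH19. The groups did not overlap, and the gene was called higher with a difference of 0.52 (SE 0.06, limma adjusted p = 0.0038). It remained under 2% of the summed *Cox6b1* and *Cox6b2* level in BAT, at 0.917% ± 0.08 in siCtrl and 1.503% ± 0.08 in siH19 (SD, n = 3). In vWAT at d3 its levels overlapped, at 25.0, 39.8 and 38.7 FPKM in siCtrl and 37.9, 31.9 and 34.0 FPKM in siH19. The interaction of depot and siRNA was 0.49 (SE 0.20, limma adjusted p = 0.17), and rose to 0.70 with an adjusted p of 0.0050 without vWAT siCtrl replicate 1. *Cox6b2* was also the member that rose most from d0 to d3 in vWAT, by 2.11 (SE 0.20) in siCtrl, beside 1.75 (SE 0.16) in BAT, and the interaction of depot and day, -0.35, did not pass (limma adjusted p = 0.32).

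Before induction and in vWAT no member was called after *H19* knockdown. In BAT at d0, 0 of 40 were called in either direction by limma (0.617% of all genes were called higher and 1.32% lower). An unadjusted p under 0.05 was found for 19 of the 40, beside 2482 of 12651 genes tested. The fitted difference was negative for 33 of 40 with a median of -0.11, and 20 of 40 did not overlap with the siH19 libraries lower (16.1% of all genes). *Cyc1* (-0.25) and *Uqcrfs1* (-0.29) had an adjusted p under 0.05, as did 1.93% of all genes in that direction. *Cyc1* stood at 93.0, 91.9 and 93.0 FPKM in siCtrl and at 75.8, 78.2 and 78.5 FPKM in siH19 at d0. In vWAT at d0, 0 of 40 were called (0.329% of all genes higher, 1.2% lower), 16 had an unadjusted p under 0.05, the median was -0.11, and 15 did not overlap with siH19 lower (16.2% of all genes). *Atp5c1*, the gamma subunit of the rotor, had -0.25 (limma adjusted p = 0.045), and 1.52% of all genes passed this way. The summed adipocyte markers were lower with siH19 at d0 in both depots, at 1510 to 2025 FPKM against 2986 to 3252 FPKM in BAT and at 2323 to 2625 FPKM against 3965 to 3976 FPKM in vWAT. Smooth muscle markers summed to 3756 to 4149 FPKM with siH19 against 3253 to 3564 FPKM in BAT (0 of 4 tested called by limma, 3 with an unadjusted p under 0.05) and to 1871 to 2305 FPKM against 1444 to 1659 FPKM in vWAT (1 of 3 tested called higher). Macrophage markers in BAT summed to 100.1 to 101 FPKM against 131 to 163 FPKM, with 1 of 5 tested called lower. The part of these markers in the subunit values at d0 was not tested. In vWAT at d3, 0 of 39 were called (0.00764% of all genes higher, 0.0229% lower), 8 had an unadjusted p under 0.05, the median was 0.05, and 8 did not overlap with siH19 higher (7.67% of all genes).

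The interaction of depot and siRNA at d3 asked whether the siH19 effect differed between BAT and vWAT. It was negative at an adjusted p under 0.05 for 23 of 40 members, beside 3.52% of 13762 genes tested, and positive for 0. The 23 were 8 of 9 genes of complex III, *Cycs*, 7 of 13 of complex IV and 7 of 17 of complex V. *Cycs* (-0.35) had an adjusted p of 0.067 from limma when all 24 libraries were fitted together. The lowest values among them were those of *Cyc1* (-0.40, SE 0.07), *Cox5a* (-0.40), *Uqcrc2* (-0.39), *Uqcrc1* (-0.38) and *Atp5b* (-0.37). The number depended on single libraries, with 12 members past the test without BAT siCtrl replicate 2, without vWAT siH19 replicate 1 or without vWAT siCtrl replicate 3, and 13 to 15 without BAT siH19 replicate 1 or 2 or BAT siCtrl replicate 3. With the replicate number as a block there were 14. Within BAT the interaction of day and siRNA, which asks whether the difference grew from d0 to d3, was passed by 3 of 40 members, *Uqcrc2* (-0.21), *Uqcrq* (-0.25) and *Atp5a1* (-0.20), beside 1.27% of all genes. It was passed by 13 with trimmed-mean scaling and 9 with equal sums, by 9 without siH19 d3 replicate 3 and 6 without siCtrl d3 replicate 1, and by 1 in 7 of the other leave-one-out fits. With the replicate number as a block *Uqcrq* (limma adjusted p = 0.073) and *Atp5a1* (limma adjusted p = 0.057) did not pass. The knockdown itself was not equal on both days. *H19* differed by -4.63 at d0 and by -2.64 at d3 in BAT, an interaction of 1.99 (limma adjusted p = 0.0028). Within vWAT the same interaction was positive for 1 member, *Atp5c1* (0.32), beside 1.46% of all genes, and for 0 without siH19 d3 replicate 1 and 5 without siH19 d0 replicate 3.

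Markers of other cells differed between siH19 and siCtrl BAT at d3 as well. The smooth muscle markers *Acta2*, *Myh11*, *Cnn1* and *Tagln* summed to 1029 to 1241 FPKM in siH19 and to 431 to 599 FPKM in siCtrl, with 3 of the 4 genes tested and all 3 called higher. The 6 stromal precursor markers summed to 619 to 678 FPKM against 376 to 416 FPKM, with 3 of 4 tested called higher. The 6 macrophage markers summed to 79.7 to 90.4 FPKM against 126 to 158 FPKM, with 2 of 4 tested called lower. The 6 skeletal muscle markers summed to 57.4 to 67.7 FPKM against 41.0 to 51.1 FPKM, with 1 of 5 tested called higher. The 6 brown adipocyte markers, which include *Cox7a1* and *Cox8b*, summed to 482 to 529 FPKM against 784 to 925 FPKM and were all called lower, while the 6 adipocyte markers summed to 33653 to 35942 FPKM against 36917 to 38605 FPKM with 0 called by limma, 2 of them lower at an adjusted p under 0.05 by less than 1.3-fold. *Adipoq*, which encodes adiponectin, differed by -0.15 (limma adjusted p = 0.10). Mesothelial and endothelial markers summed to at most 4.11 FPKM in these libraries. The part of these marker levels in the subunit differences was not tested.

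*Cox7a1* and *Cox8b*, the isoforms left out of the members, had larger fitted differences after *H19* knockdown in BAT at d3 than the members they replace, whereas the muscle isoform *Cox6a2* had -0.02 beside -0.26 for *Cox6a1*. *Cox7a1* was listed at 268, 285 and 316 FPKM in siCtrl BAT at d3 and at 172, 193 and 182 FPKM in siH19, a difference of -0.66 (SE 0.07, limma adjusted p = 0.0033). Its partner *Cox7a2* stood at 813, 871 and 867 FPKM against 739, 751 and 836 FPKM. *Cox7a1* thus made up 25.4% ± 1.15 of the pair in siCtrl BAT at d3, 19.1% ± 1.32 in siH19 BAT and 4.29% ± 0.54 in siCtrl vWAT (SD, n = 3). *Cox8b* was listed at 48.9, 60.6 and 71.7 FPKM against 19.3, 27.9 and 25.9 FPKM, a difference of -1.28, and made up 4.54% ± 0.73 and 2.13% ± 0.38 of the subunit 8 genes in siCtrl and siH19 BAT. Both genes had non-overlapping groups in BAT at d3.

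**Figure D4:**
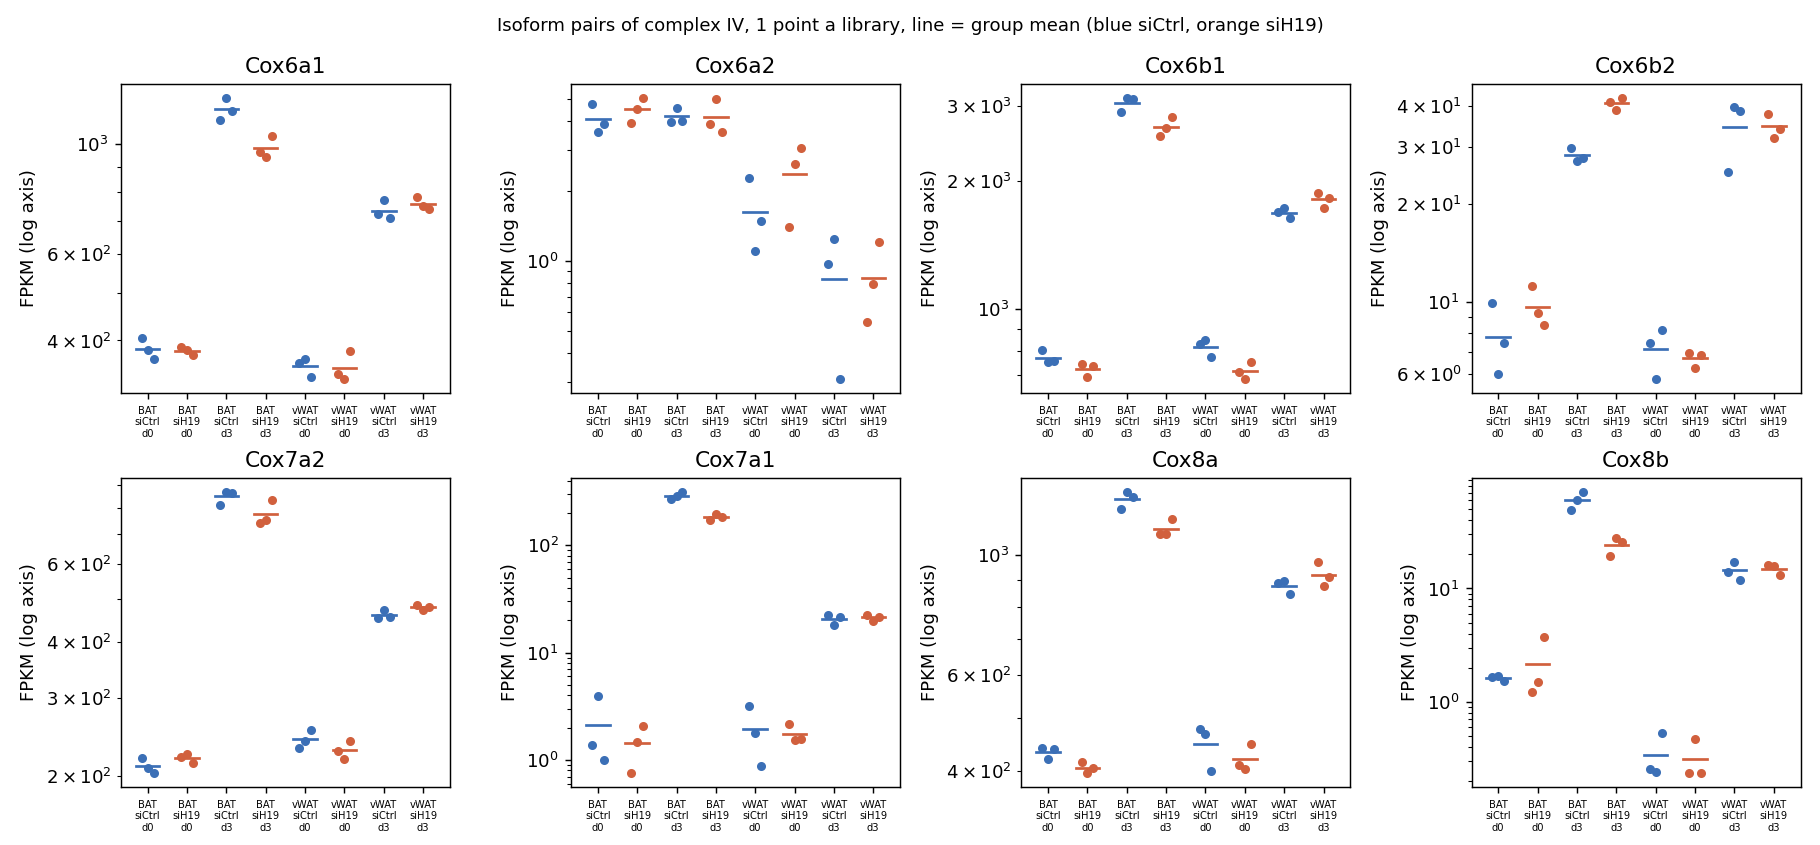
FPKM of 4 isoform pairs of complex IV in each library (log axis), with lines at the group means. *Cox6a1*, *Cox6b1*, *Cox7a2* and *Cox8a* are the abundant isoforms. *Cox7a1* and *Cox8b* reach their highest levels in siCtrl BAT at d3, *Cox6a2* lies higher in BAT than in vWAT on both days, and *Cox6b2* lies higher with siH19 in BAT at d3.

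*Cox6a2* behaved unlike most other members. Like *Cox4i2* it did not rise in BAT, at 3.98, 4.58 and 4.02 FPKM in siCtrl at d3. In siCtrl vWAT *Cox6a2* was listed at 0.966, 1.24 and 0.309 FPKM at d3. In siH19 vWAT it fell by 0.84 on the log2 scale (SE 0.23, limma adjusted p = 0.015) from d0 to d3, one of the 24.5% of genes called lower. Its exons overlap those of *Itgad* on the opposite strand over 10.3% of their length, and strand use in counting is not given in the sources used here. *Itgad* was listed at means of 0.291 FPKM at d0 and 4.34 FPKM at d3 in siCtrl BAT. Its means at d3 were 8.77 FPKM in siH19 BAT and 0.342 FPKM in siCtrl vWAT. The part of *Itgad* reads in the *Cox6a2* values was not tested. Skeletal muscle markers (*Myod1*, *Myog*, *Ckm*, *Actn2*, *Myh3*, *Des*) summed to 50.4 to 83.0 FPKM in siCtrl BAT at d0 and to 41.0 to 51.1 FPKM at d3, against 30.2 to 39.0 and 9.71 to 14.3 FPKM in siCtrl vWAT. *Myod1*, *Myog* and *Ckm* were listed at 0 in all 3 siCtrl vWAT libraries at d3, and the part of muscle cells in *Cox6a2* was not tested.

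Genes that work with these subunits were examined from lists of their own. Of 34 assembly factors of complexes III to V, 32 rose and 0 fell from d0 to d3 in siCtrl BAT (median 1.46), where 29.9% of all genes were called higher. In siCtrl vWAT 27 rose and 2 fell (median 0.75), beside 26.3% of all genes called higher and 23.9% lower. After *H19* knockdown in BAT at d3, 30 of the 34 had a negative fitted difference and 3 were called lower (2.18% of all genes), with the median of -0.18 also seen for the members. Of 39 complex I subunits, 38 rose and 1 fell in siCtrl BAT (median 2.02), and at d3 0 were called lower with siH19, 26 had a lower level at an adjusted p under 0.05 and the median was -0.23. All 4 complex II genes rose in siCtrl BAT (median 2.35), and *Sdha*, its flavoprotein, was called lower with siH19 (-0.41, limma adjusted p = 0.0039). The 6 mitochondrially encoded subunits of complexes III to V also rose in siCtrl BAT (median 1.80) and had a median of -0.18 with siH19 at d3, 0 called. Transcripts such as those of *mt-Atp8* and *mt-Atp6* overlap, so single values among these are uncertain.

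Of 8 listed regulators of these genes, 4 rose and 3 fell from d0 to d3 in siCtrl BAT, beside 29.9% of all genes called higher and 35.3% lower. The coactivators *Ppargc1a* and *Ppargc1b* rose by 2.77 and 3.55, *Esrra*, the receptor they coactivate, by 1.85 and the mitochondrial transcription factor *Tfam* by 0.52, while *Nrf1* fell by 0.58, *Yy1* by 0.77 and *Gabpb1* by 1.16. In siH19 BAT at d3, *Ppargc1a* was called lower (-0.81, SE 0.13, limma adjusted p = 0.011), at 6.59, 8.37 and 6.88 FPKM against 13.1, 15.8 and 11.6 FPKM. *Esrra* (-0.33, limma adjusted p = 0.0081) and *Ppargc1b* (-0.35, limma adjusted p = 0.018) differed by less than 1.3-fold and were not called. *Yy1* differed in the other direction by a like amount (0.33, limma adjusted p = 0.018), so that 3 regulators were lower and 1 higher at an adjusted p under 0.05. *Atpif1*, the inhibitor of ATP synthase, fell by 0.41 from d0 to d3 in siCtrl BAT and differed by 0.29 (limma adjusted p = 0.0088) with siH19 at d3, again below 1.3-fold. *Usmg5*, the other accessory protein of ATP synthase listed, rose by 1.61 and had -0.16 (limma adjusted p = 0.12) with siH19.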

How the data were processed

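Poly-A RNA was sequenced, and the submitters' processing notes name FastQC 0.10.1, TopHat2 2.0.10, STAR, Cufflinks 2.2.1, DESeq2, R 3.2.2 and build GRCm38.p5. The authors deposited 1 table of FPKM per Ensembl gene and library, with no unit in its header, so the unit was taken from the study's methods. FPKM are relative within a library, so abundant transcripts can shift all others. Read type and strand use in counting are not settled by the sources used here. All library columns matched a labelled sample by name (0 columns unused). Relative depth was estimated from low values that libraries share, and counting error per gene could not be given.

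Models in limma 3.58.1 (R 4.3.3, empirical Bayes with a mean-variance trend) used log2(FPKM + 1) and the 6 libraries of a comparison, or 12 for interactions, for genes at FPKM of at least 1 in at least 3 libraries. Fold changes are on that scale and understate the change of low genes. Tests were two-sided, interactions were called on the adjusted p alone, and the fits were tested on simulated data. Shared sequence and exon overlap came from GENCODE transcripts of GRCm38, computed in Python 3.11.15 with pandas 2.3.3, numpy 2.4.6 and matplotlib 3.10.9.

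Members and gene lists were chosen with earlier results of these data known. Values by library were given first to members called after siH19, among the 3 largest changes in a comparison, in an isoform family, or forming the catalytic core, and to *H19*, *Ucp1*, *Cox7a1*, *Cox8b* and *Ppargc1a*, and *Adipoq* was named by the same rule. *Sdha*, *Atpif1*, *Usmg5*, the other regulators and overlapping neighbours were named after their values were seen. Alternatives were another pseudocount, other filters, 2 rescalings, 1 fit of all 24 libraries, a replicate block, other thresholds and leaving out single libraries.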

Additional observations from a re-analysis of the deposited data

Results flagged for a closer look

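Effects of the same contrast that differed between depots or days by an interaction test in limma are given here. The change from d0 to d3 in siCtrl cultures differed between BAT and vWAT for 36 of 40 members, all with the larger rise in BAT (24.9% of all genes). The siH19 effect at d3 differed between the depots for 23 of 40 members, all with the lower value in BAT (3.52% of all genes). Between d0 and d3 the siH19 effect differed for 3 members within BAT, each lower at d3 (1.27% of all genes). Within vWAT it differed for 1 member, which was higher at d3 (1.46% of all genes). With single libraries left out, the last 3 counts ranged from 12 to 26, from 1 to 9 and from 0 to 5. Groups of 3 libraries were too small for a test of outlying libraries.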

How the results depend on the processing

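Depot could not be separated from medium or library series, only FPKM without counts were tested, and 3 cultures a group limit each test. The cause of the changes listed here was not tested.

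With the siH19 comparison in BAT at d3, the number of members called was 1 as reported, 7 with trimmed-mean scaling, 2 with all 24 libraries in 1 fit, 2 with unadjusted p, and 22 with no minimum fold change, which also gave 2 in BAT and 1 in vWAT at d0. Between depots at d0 the number was 0 with a filter at FPKM of 5 and 19 with no minimum fold change. With no minimum, 15.4% of all genes were higher in BAT and 33.2% lower. The depot by siRNA interaction gave 13 without a filter. The day by siRNA interaction gave in BAT 1 without a filter, 9 with equal sums, 13 with trimmed-mean scaling and 6 with all libraries in 1 fit, and in vWAT 5 with all libraries in 1 fit.

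Equal sums moved the median change from d0 to d3 to 1.70 in siCtrl BAT, 1.62 in siH19 BAT, 0.86 in siCtrl vWAT and 1.02 in siH19 vWAT, and that of all genes to -0.27, -0.17, -0.10 and -0.12. Between depots at d0 the member median was -0.076 with equal sums and -0.014 with trimmed-mean scaling, and at d3 it was 0.94 with the latter, where all genes had -0.02 and -0.04. In siCtrl BAT the change of *Cox4i2* was -0.023 and that of *Cox6a2* -0.12 with equal sums.

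The higher and lower calls over all genes shifted with rescaling by over 10 percentage points as follows. For siH19 in BAT at d3, trimmed-mean scaling changed 799 and 272 to 625 and 414. Trimmed-mean scaling changed 43 and 157 to 61 and 129 for siH19 in vWAT at d0, 1343 and 2753 to 1823 and 1974 between depots at d0, 2162 and 4216 to 2801 and 3372 at d3, 966 and 485 to 634 and 755 for depot by siRNA, and 1058 and 172 to 529 and 321 for day by siRNA in BAT. Equal sums changed 3998 and 3859 to 3312 and 4832 from d0 to d3 in siH19 BAT, 3519 and 3201 to 2929 and 4091 in siCtrl vWAT, and 3761 and 3276 to 3033 and 4221 in siH19 vWAT.

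Leaving out single libraries gave 1 to 5 members for siH19 in BAT at d3, 1 to 2 between depots at d0 (2 without replicate 2 of either group), 12 to 26 for depot by siRNA, 1 to 9 for day by siRNA in BAT and 0 to 5 in vWAT. The change from d0 to d3 in siCtrl BAT ranged from -0.017 to 0.14 for *Cox4i2* and from -0.031 to 0.13 for *Cox6a2*, reversing without d3 replicate 3 or d0 replicate 3 for the former and without d3 replicate 2 or d0 replicate 2 for the latter. *Cox4i2* lost its call in vWAT without siCtrl d3 replicate 1 or d0 replicate 3, and *Cox6b2* was lower in BAT than in vWAT at d3 without vWAT replicate 1 (-0.46, limma adjusted p = 0.0016).

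Same-numbered libraries deviated together in no comparison (correlations from -0.14 to 0.09), and only between depots at d3 did 3 of 3 pairs correlate best with their own number. The numbers were therefore taken as names. With the replicate block 2 members were called for siH19 in BAT at d3 14 for depot by siRNA and 2 for day by siRNA in BAT, and over all genes siH19 gave 0 and 2 calls in BAT at d0, 1 and 1 in vWAT at d0 and 0 and 0 in vWAT at d3.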
